A study of Mus musculus with 32 samples.

Results

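Interferon-stimulated genes (ISGs) were followed in microglia and spinal cord of an amyotrophic lateral sclerosis mouse model with and without the immune checkpoint receptor LAG-3. The set was a list of 41 gene symbols that respond to type I interferon, matched to Ensembl identifiers, out of 74021 genes in the count tables. All 41 ISGs passed the filter on low counts in both microglial tables, and 40 passed it in the spinal cord, where Oas3 fell below it. The members fall into 8 roles: 12 nucleic acid sensors and antiviral enzymes, 3 transcription factors, 3 genes of the ISG15 system, 4 IFIT genes, 8 Mx, nucleotide and nuclease effectors, 4 membrane and trafficking genes, 3 ADP-ribosylation genes and 4 others.

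RNA-seq was available for 32 libraries in 3 tables. The LAG-3-sorted table held CD11b+/CD45int microglia of lumbar cord from wild-type (WT) non-transgenic littermates (4 libraries) and, from SOD1G93A mice, LAG-3-low and LAG-3-high cells (5 libraries each). SOD1G93A mice carry a human SOD1 transgene with an ALS mutation, were heterozygous for it, and were taken at P140 for this sort according to the study's methods, while the age of the WT mice is not stated in the labels. The stage table held microglia of SOD1G93A mice with intact Lag3 (SOD1G93A/LAG-3+/+) or with a germline Lag3 knockout (SOD1G93A/LAG-3-/-) at P120, the early symptomatic stage, and at P140, the late symptomatic stage, with 3 libraries in each of the 4 groups. The cord table held whole lumbar cord of both genotypes at P140, again with 3 libraries each. Every group of the stage and cord tables carried the SOD1G93A transgene, so those tables have no healthy control. The knockout removes Lag3 from all cells, not from microglia alone. Whether the libraries of a group came from separate animals is not stated in the labels, so p-values measure the spread between these libraries, which may be partly technical.

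Type I interferons bind a receptor on nearly all cells and activate the kinases JAK1 and TYK2 on its inner side. Their signal assembles the complex ISGF3, of which STAT2 and IRF9 are parts and which binds interferon-stimulated response elements near the starts of its target genes. The products sense viral nucleic acids, block translation and replication, and feed back on the pathway through IRF7, which raises interferon production, and USP18, which dampens the receptor. In microglia, ISGs are known as a module that is switched on in a subset of cells in ageing, injury and neurodegeneration.

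Library totals lay between 9403286 counts (WT replicate 2) and 49512341 counts (P120 SOD1G93A/LAG-3+/+ replicate 2) after rounding. Levels are given in CPM, that is, as counts set to a common library size after TMM scaling, and levels of different genes are not compared because they are not set per transcript length. Lag3 itself was at 0.0239 to 0.462 CPM in the 6 knockout microglial libraries. In SOD1G93A/LAG-3+/+ microglia it was at 53.4 to 62.9 CPM at P120 and lower, at 24.5 to 28.1 CPM, at P140. In cord it was at 5.50 to 5.72 CPM in the knockout against 43.4 to 74.5 CPM with Lag3. Along the sort it was at 0.508 to 9.99 CPM in WT, 34.8 to 57.8 CPM in LAG-3-low and 146 to 195 CPM in LAG-3-high libraries. The summed level of 8 microglial markers was between 16317 and 40481 CPM in every microglial library. The summed level of 10 neutrophil markers was 5972 to 70511 CPM in WT and 22825 to 66376 CPM in LAG-3-low libraries, but 3.48 to 9.67 CPM in LAG-3-high libraries, with each marker detected in all 3 groups. In the stage table these markers lay between 1743 and 2576 CPM at P120 and at 3482, 667 and 3.84 CPM at P140 in SOD1G93A/LAG-3+/+ libraries 1, 2 and 3, and between 2.68 and 6.58 CPM at P120 and at 4.02, 847 and 4616 CPM at P140 in the knockout. The 4 markers of plasmacytoid dendritic cells summed to 0 to 56.4 CPM in WT, 9.67 to 32.0 CPM in LAG-3-low and 77.5 to 88.9 CPM in LAG-3-high libraries, with Klk1 at 0 in all 3 groups and Pacsin1 at 0 in WT. In whole cord the same list summed to more, 231 to 311 CPM with Lag3 and 163 to 245 CPM without it. The sum may therefore not be specific to these cells. The part of either list in the results below was not tested.

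The promoters of the members were searched for the letters GAAANNGAAA on either strand, the core of the interferon-stimulated response element, in the 250 bases before the start of 1 transcript per gene, the Ensembl canonical one, in GRCm39 (GENCODE vM39). For 11 of 41 members that start is not the outer edge of the gene. The letters were present in 17 of 41 ISG promoters (41.5%) and in 723 of 21770 promoters of protein-coding genes (3.32%). A match is a description of the letters and not a measured binding site. Isg15, Oas3 and Trim30a are shown because they hold the letters and were called in more than 1 comparison, and Ifit3 with Ifit3b because this neighbouring pair shares its upstream letters. Each line runs 5′ to 3′ on the strand of its gene, and capitals mark the match, which reads as its reverse complement in the last 3.
Isg15, chr4:156285307-156285366, minus strand: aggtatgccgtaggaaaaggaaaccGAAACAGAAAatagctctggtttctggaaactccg
Oas3, chr5:120915765-120915824, minus strand: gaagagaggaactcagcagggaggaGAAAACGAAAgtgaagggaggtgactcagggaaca
Trim30a, chr7:104114408-104114461, minus strand: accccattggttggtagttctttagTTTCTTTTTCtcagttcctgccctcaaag
Ifit3, chr19:34560782-34560841, plus strand: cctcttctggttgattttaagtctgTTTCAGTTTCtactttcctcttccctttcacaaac
Ifit3b, chr19:34585178-34585237, plus strand: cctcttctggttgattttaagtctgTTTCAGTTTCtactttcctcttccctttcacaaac

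The windows of Ifit3 and Ifit3b were identical at 60 of 60 bases, and those of Ifi204 and Ifi207 at 50 of 58. Counts of Ifit3, Ifit3b, Ifi204, Ifi207, Oas1a, Slfn8 and Trim30a, all from multigene families, may be split between copies and are uncertain, and the transcripts themselves were not compared here. Of the 4 members called in 3 comparisons each, Isg15 held the letters and Oasl1, Irf7 and Isg20 did not within this window. Of members with the letters 6 of 17, and of those without 6 of 24, rose from P120 to P140 in SOD1G93A/LAG-3+/+ microglia, beside 11.9% of all genes. In the knockout cord 4 of 16 and 6 of 24 were lower, beside 3.15% of all genes. The share of all genes called was not split by the letters, so the split itself has no background. By chromosome, 6 members lie on chromosome 16, 5 each on chromosomes 5 and 11, and all 4 IFIT genes on chromosome 19. Dtx3l and Parp9 lie on opposite strands of chromosome 16 and share 682 bases (chr16:35758840-35759521), so without strand their reads there cannot be told apart in the microglial libraries.

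The ISGs differed widely between libraries of 1 group. Summed over the 41 members, the level was 1483, 878, 2350 and 1783 CPM in the 4 WT libraries, with replicate 3 the highest in 22 of 41 members. It was 2587, 1438, 2323, 2366 and 2016 CPM in LAG-3-low and 3126, 1255, 2359, 3041 and 2244 CPM in LAG-3-high libraries. LAG-3-high replicate 2 was the lowest of its group in 35 members, and LAG-3-low replicate 2 in 22. The 3 sorted groups therefore overlapped in summed level.

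At P120 the sum was 2376, 1823 and 1892 CPM in SOD1G93A/LAG-3+/+ microglia and 2530.1, 2509 and 1430.4 CPM in the knockout. At P140 it was 8237, 2244 and 3789 CPM in SOD1G93A/LAG-3+/+ and 4280.4, 2820.2 and 2408 CPM in the knockout. P140 SOD1G93A/LAG-3+/+ replicate 1 was the highest of its group in 37 of 41 members and replicate 2 the lowest in 37, with 4 members at 0 (Oas3, Oasl1, Mx1 and Ifi44). Among P120 knockout libraries, replicate 1 stood out by a few members rather than by the set: Ifit1 was at 472, 27.6 and 5.01 CPM, Rsad2 at 148, 47.1 and 5.99 CPM, while Ifitm3 in that replicate was at 24.1 CPM, below the 81.8 CPM of replicate 2. In cord the sum was 651, 429 and 569.5 CPM with Lag3 and 440.4, 366 and 348 CPM without it, and replicate 2 with Lag3 was the lowest of its group in 40 members.

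**Figure D1:**
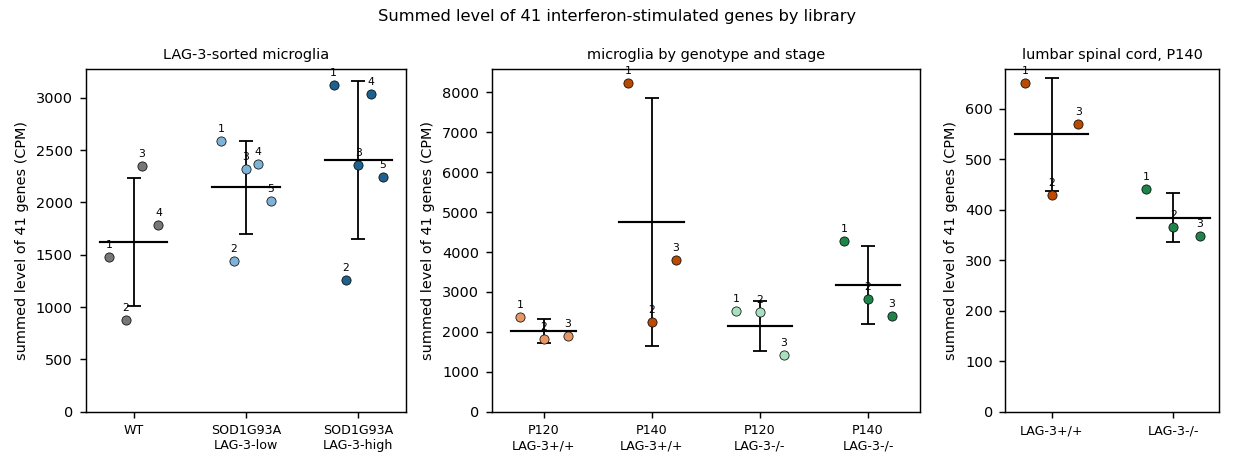
Summed level of the 41 ISGs in each library, in CPM after TMM scaling, by group in the 3 tables; points numbered by replicate are libraries, and lines with bars are means ± SD. The P140 SOD1G93A/LAG-3+/+ libraries span 2244 to 8237 CPM, wider than any other microglial group, and 2 of the 3 lie above all P120 libraries.

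**Figure D2:**
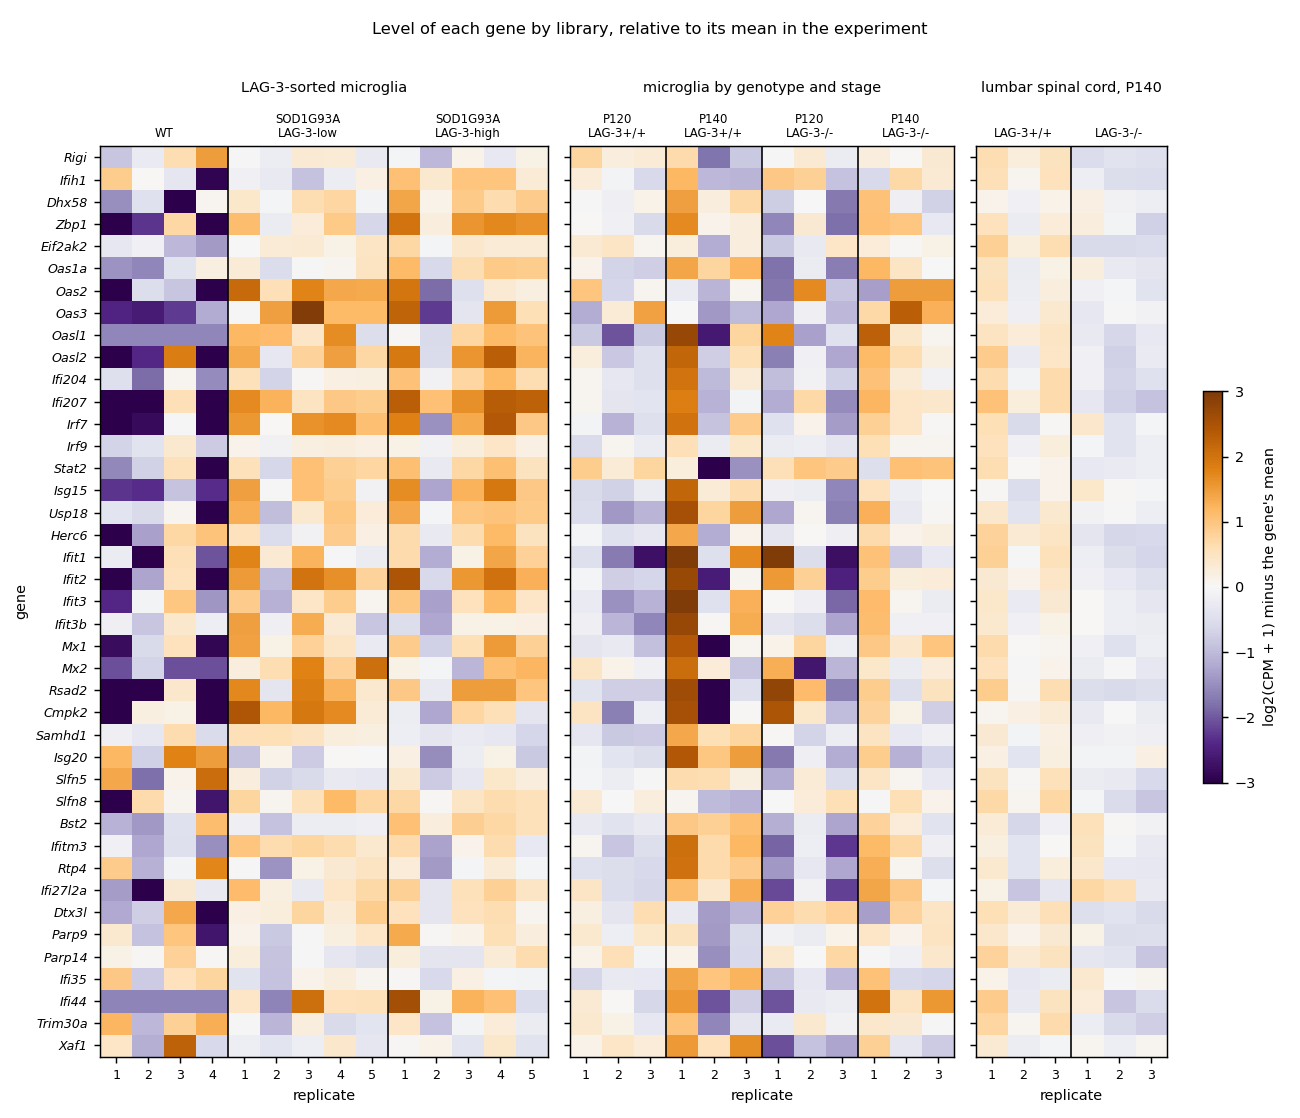
Level of each ISG (rows, by role) in each library (columns, by group) as log2(CPM + 1) minus the mean of that gene over the libraries of its table, with the colour ending at -3 and 3. WT replicate 3 and P140 SOD1G93A/LAG-3+/+ replicate 1 show as high columns, and P140 SOD1G93A/LAG-3+/+ replicate 2 and LAG-3-high replicate 2 as low columns against their groups.

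LAG-3-low microglia were compared with WT microglia to see which ISGs mark SOD1G93A cells with little surface LAG-3. In this table and in cord a call needed both an adjusted p under 0.1 and an absolute log2 fold change above 1. In edgeR (quasi-likelihood test, Benjamini-Hochberg over the 16508 genes tested), 8 ISGs were higher in LAG-3-low microglia (Oasl1, Ifi44, Ifitm3, Oas3, Isg15, Mx2, Irf7 and Oas2) and 2 were lower (Trim30a and Isg20). Of all genes, 10.9% were called higher and 11% lower. The median log2 fold change was 0.98 over the ISGs, with 31 positive and 10 negative, and 0.04 over all genes.

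Oasl1, an OAS-like protein that lacks OAS enzyme activity and restrains Irf7 translation, had 0 counts in all 4 WT libraries and stood at 5.79, 5.58, 2.99, 8.58 and 1.09 CPM in the LAG-3-low libraries. The groups did not overlap, and the mean was at least 24.9-fold higher against a floor of 3 counts per WT library (edgeR adjusted p = 0.000921). Ifi44, an interferon-induced protein, was likewise at 0 counts in each WT library and at 3.13, 0, 11.6, 3.44 and 3.49 CPM in LAG-3-low libraries, at least 22.4-fold higher (edgeR adjusted p = 0.0105). Replicate 2 of LAG-3-low was also at 0, so the ranges touched.

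Ifitm3, a membrane protein that blocks virus entry, was at 101, 46.5, 80.01 and 38.7 CPM in WT and 221, 173, 187, 174 and 143 CPM in LAG-3-low libraries. Every LAG-3-low library lay above every WT library, and the log2 fold change was 1.43 (SE 0.38, edgeR adjusted p = 0.0213), a 2.70-fold rise. The 6 monocyte markers summed to 51.1 to 2726 CPM in WT and 1660 to 5144 CPM in LAG-3-low libraries beside it, and their part was not tested. Isg15, the ubiquitin-like modifier of the pathway, was at 0.0510, 0, 1.75 and 0 CPM in WT and 13.1, 3.998, 9.63, 8.38 and 3.75 CPM in LAG-3-low libraries, again without overlap (edgeR adjusted p = 0.0505). Irf7, the factor that amplifies interferon production, went from 1.07, 2.96, 26.3 and 0.381 CPM to 82.3, 27.4, 84.2, 90.0 and 58.8 CPM, with a log2 fold change of 3.15 (SE 1.04, edgeR adjusted p = 0.0513). Its highest WT library, replicate 3, lay just under the lowest LAG-3-low library.

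Both ISGs that were lower overlapped between groups. Trim30a, a regulator of inflammatory signalling, was at 202, 42.6, 155 and 215 CPM in WT and 85.4, 41.8, 102, 58.8 and 66.0 CPM in LAG-3-low libraries, a log2 fold change of -1.12 (SE 0.41, edgeR adjusted p = 0.0751). Isg20, an exonuclease acting on RNA, was at 22.5, 5.23, 34.4 and 27.8 CPM in WT and 4.60, 10.2, 4.999, 9.30 and 9.24 CPM in LAG-3-low libraries, a log2 fold change of -1.55 (SE 0.59, edgeR adjusted p = 0.0852). WT replicate 2 was the exception in both, at or near the LAG-3-low level. Neither call was firm, since the call of Trim30a was lost without WT replicate 1, 3 or 4 or LAG-3-low replicate 1, 2, 4 or 5, and that of Isg20 in 12 of 14 fits that left out 1 library.

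Other members that are often named with this set spread too widely to be called. Ifit2 was at 0, 17.3, 62.3 and 0 CPM in WT and 124, 21.3, 171, 134 and 74.6 CPM in LAG-3-low libraries. Rsad2, which encodes viperin, was at 0.153, 0, 12.1 and 0 CPM in WT and 6.89 to 35.7 CPM in LAG-3-low libraries. In both, WT replicate 3 reached into the LAG-3-low range. Without WT replicate 3, 17 ISGs were called higher and 1 lower, beside 13.3% and 12.5% of all genes, of which 7 were among the 10 called with it. The split between higher and lower was 7 and 0 on library totals without TMM, beside 10.4% and 9% of all genes. It was 6 and 0 with no filter on low counts, beside 3.99% and 2.37%. It was 7 and 8 once length and GC content of the transcripts were corrected for, where 7.96% of all genes were higher and 27.5% lower.

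LAG-3-high microglia gave a similar number against the same WT libraries, which both comparisons share. In edgeR 10 ISGs were higher (Oasl1, Ifi44, Ifi204, Isg15, Oas3, Oas1a, Irf7, Eif2ak2, Dhx58 and Mx2), beside 12.1% of all genes, and 1 was lower (Isg20), beside 14.9% of all genes. The median log2 fold change was 1.01, with 31 positive and 10 negative, against -0.08 over all genes. The sensors held 6 of the 10 higher calls.

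Oasl1 was at 2.03, 1.001, 3.94, 5.61 and 5.004 CPM in LAG-3-high libraries, at least 18.2-fold above the WT floor (edgeR adjusted p = 0.000643). Ifi44 was at 17.1, 2.40, 6.34, 5.39 and 1.13 CPM, at least 33.6-fold above it (edgeR adjusted p = 0.00630). Neither gene overlapped with WT, where each had 0 counts in all 4 libraries.

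Ifi204, a DNA sensor of the IFI200 family, was at 55.1, 20.7, 80.6 and 25.9 CPM in WT and 158, 71.2, 128, 172 and 119 CPM in LAG-3-high libraries (log2 fold change 1.505, SE 0.40, edgeR adjusted p = 0.0177). WT replicate 3 and LAG-3-high replicate 2 overlapped. Eif2ak2, which encodes the double-stranded RNA kinase PKR, rose from 20.2, 23.3, 12.03 and 9.26 CPM to 42.3, 24.5, 33.6, 31.4 and 31.4 CPM without overlap (log2 fold change 1.01, SE 0.34, edgeR adjusted p = 0.0488). Isg20 was at 10.7, 2.60, 7.94, 10.4 and 4.86 CPM, a log2 fold change of -1.62 (SE 0.59, edgeR adjusted p = 0.0646) that was no longer called without WT replicate 3 or LAG-3-high replicate 2, 3 or 5. Without WT replicate 3, 18 ISGs were called, all higher, beside 14.6% of all genes, of which 8 were among the 11. On library totals without TMM 7 were higher and 2 lower, beside 9.01% and 19.6% of all genes. With the length and GC correction 8 were higher and 7 lower, beside 8.19% and 25.9% of all genes.

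The comparison of LAG-3-high with LAG-3-low microglia asked whether the ISGs followed the amount of LAG-3 within SOD1G93A cells. No ISG was called by edgeR, beside 3.49% of all genes, and DESeq2 called 0 beside 5.98%. At an unadjusted p under 0.05 there were 2 of 41 ISGs, where 12% of all genes passed. The median log2 fold change of the ISGs was 0.11 with 26 positive and 15 negative, and its sign turned to -0.26 on library totals without TMM, so the set gave no direction between the fractions that held under both scalings. Leaving out TMM also moved the median of all genes, from -0.02 to -0.40 here and from -0.08 to -0.39 for LAG-3-high against WT. Between the stages with Lag3 it went from -0.22 to -0.70. In each the ISG median stayed above that of all genes, but scaling shifts all genes of a library alike. This was therefore no separate test.

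Samhd1, a dNTP hydrolase that limits reverse transcription, came nearest to a call. It was at 150.3, 152, 142, 119.7 and 116 CPM in LAG-3-low and 88.5, 78.3, 85.0, 81.0 and 63.5 CPM in LAG-3-high libraries. No libraries overlapped, and its adjusted p of 0.0900 was under the threshold, but its log2 fold change of -0.78 (SE 0.23, edgeR) was under the fold minimum. Over 23 alternatives its adjusted p lay between 0.000507 and 0.271. The neutrophil markers differed between these fractions from at least 22825 to at most 9.67 CPM, the plasmacytoid dendritic cell markers from at most 32.0 to at least 77.5 CPM, and their part was not tested.

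Bst2, the tetherin that holds budding virus at the membrane, was at 73.3, 43.6, 71.9, 71.1 and 73.5 CPM in LAG-3-low and 173, 96.0, 149, 136 and 121 CPM in LAG-3-high libraries (log2 fold change 1.02, SE 0.40, edgeR adjusted p = 0.278). Ifih1, the RNA sensor MDA5, was at 28.0, 25.4, 15.9, 26.8 and 34.7 CPM and 65.2, 39.5, 62.4, 61.8 and 38.1 CPM (log2 fold change 1.03, SE 0.52, edgeR adjusted p = 0.470). In both genes every LAG-3-high library was above every LAG-3-low library, but in the table-wide test neither passed. Without WT replicate 4, which enters the estimate of the spread, both were called higher, beside 1.45% of all genes.

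**Figure D3:**
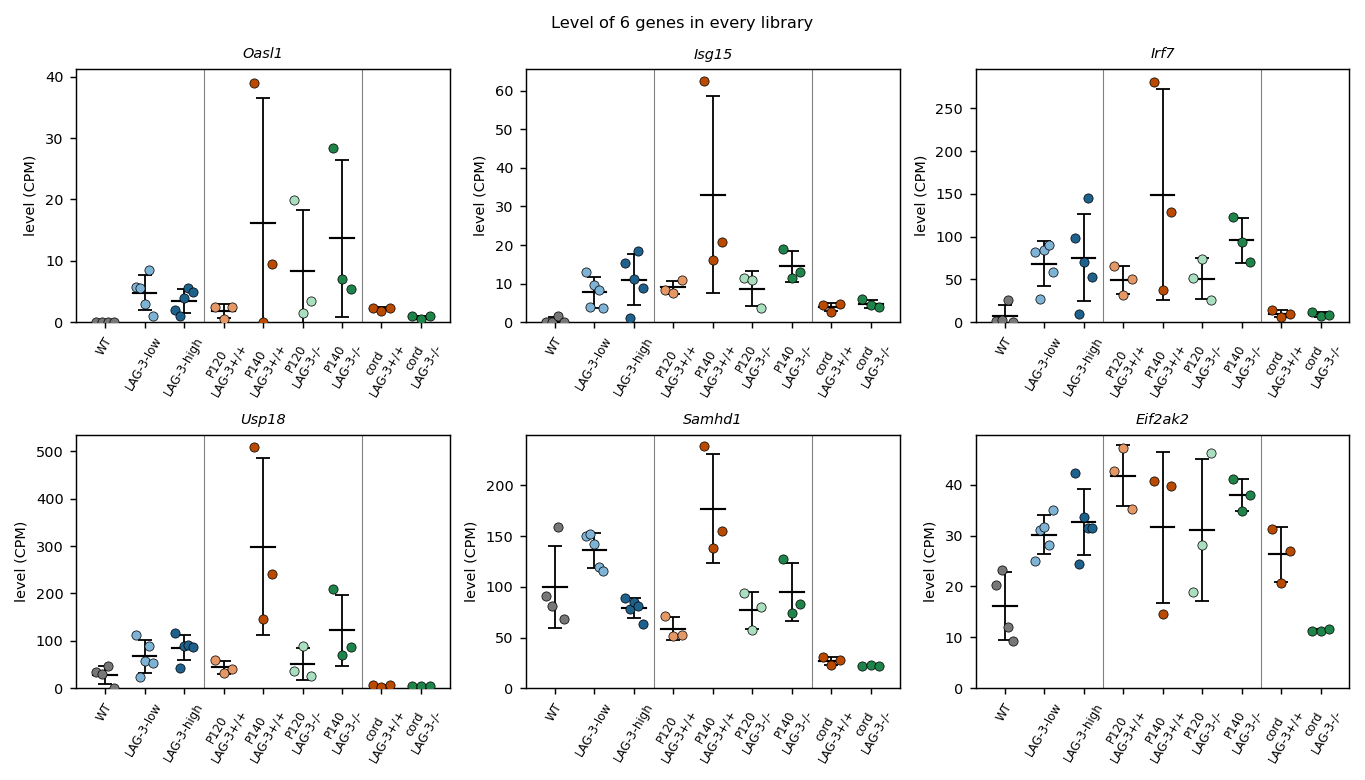
Levels of Oasl1, Isg15, Irf7, Usp18, Samhd1 and Eif2ak2 in every library of the 3 tables, in CPM after TMM scaling; points are libraries and bars are means ± SD. Oasl1 is at 0 in all 4 WT libraries, Samhd1 is lower in all LAG-3-high than in all LAG-3-low libraries, and Eif2ak2 is at 11.3 to 11.6 CPM in the knockout cord against 20.6 to 31.3 CPM with Lag3.

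The stage table compared P140 with P120 within each genotype, with an adjusted p under 0.1 as the only threshold for a call. In SOD1G93A/LAG-3+/+ microglia 12 of 41 ISGs rose and 0 fell (edgeR with Benjamini-Hochberg adjustment over 18669 genes), beside 11.9% of all genes rising and 15.5% falling. The median log2 fold change was 1.14 over the ISGs and -0.22 over all genes. The risers were Usp18 and Isg15 of the ISG15 system, Ifit3 and Ifit3b, Samhd1 and Isg20, the membrane proteins Bst2, Ifitm3 and Rtp4, the sensor Oas1a, the factor Irf7, and Ifi35.

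Samhd1 went from 71.5, 51.7 and 52.6 CPM at P120 to 239, 138 and 155 CPM at P140, a log2 fold change of 1.60 (SE 0.30, edgeR adjusted p = 0.00735), or 3.02-fold. Usp18, the protease that removes ISG15 and dampens the receptor, went from 59.7, 31.9 and 40.5 CPM to 509, 147 and 242 CPM, a log2 fold change of 2.76 (SE 0.61, edgeR adjusted p = 0.0124), or 6.80-fold. Bst2 went from 96.8, 87.2 and 96.6 CPM to 225, 209 and 246 CPM, a log2 fold change of 1.28 (SE 0.33, edgeR adjusted p = 0.0218). In these 3 genes each P140 library exceeded each P120 library, including the P140 replicate 2 that was the lowest in most members. The calls of all 3 held under every one of 21 alternatives, and without P140 replicate 1 the log2 fold change of Usp18 was 2.14.

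Ifit3, a partner of IFIT1 in binding foreign RNA, was at 104, 44.3 and 58.2 CPM at P120 and 1017, 91.6 and 301 CPM at P140, and replicate 2 lay within the P120 range (log2 fold change 2.77, SE 0.80, edgeR adjusted p = 0.0352). Isg15 was at 8.45, 7.63 and 11.0 CPM and then 62.4, 16.04 and 20.7 CPM (log2 fold change 1.87, SE 0.58, edgeR adjusted p = 0.0444) without overlap. Isg20, lower in both SOD1G93A fractions than in WT, was at 9.15, 7.14 and 6.53 CPM at P120 and 55.6, 20.1 and 29.3 CPM at P140 (log2 fold change 2.20, SE 0.68, edgeR adjusted p = 0.0444).

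Without P140 replicate 1, 7 of the risers kept their call (Bst2, Ifi35, Ifit3b, Oas1a, Rtp4, Samhd1 and Usp18) and 6 other members were called lower (Dtx3l, Parp14, Parp9, Rigi, Slfn8 and Stat2), beside 10.6% of all genes rising and 15% falling. Without P140 replicate 2, 20 ISGs rose, beside 7.74% of all genes. Without P120 replicate 2 the count was 6 and without P120 replicate 3 it was 7, all among the 12, beside 6.7% and 6.75% of all genes rising. On library totals without TMM 9 rose and 3 fell (Dtx3l, Parp14 and Slfn8), beside 5.2% of all genes rising and 22.1% falling. The 4 plasmacytoid dendritic cell markers, with Klk1 at 0 in both groups, summed to 18.4 to 31.3 CPM at P120 and 65.3 to 74.6 CPM at P140 beside these rises, and their part was not tested.

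Members with negative values included Stat2, a subunit of ISGF3, at 103, 68.5 and 95.2 CPM at P120 and 66.9, 1.08 and 19.6 CPM at P140 (log2 fold change -1.60), and Dtx3l, an E3 ligase partner of Parp9, at 37.8, 25.1 and 50.7 CPM and then 27.1, 12.2 and 15.4 CPM (log2 fold change -1.05). Neither was called. These values moved with transcript length: among ISGs with transcripts under 3000 bases the median log2 fold change was 1.60, and 11 of 21 were called, while among the longer ones it was 0.09 and 1 of 20 was called. Over all genes the same split gave medians of 0.23 and -0.86. The share of all genes called was not split by length, so these counts have no background. With length and GC content corrected for, 18 ISGs rose and 0 fell, beside 18.9% and 6.23% of all genes.

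**Figure D4:**
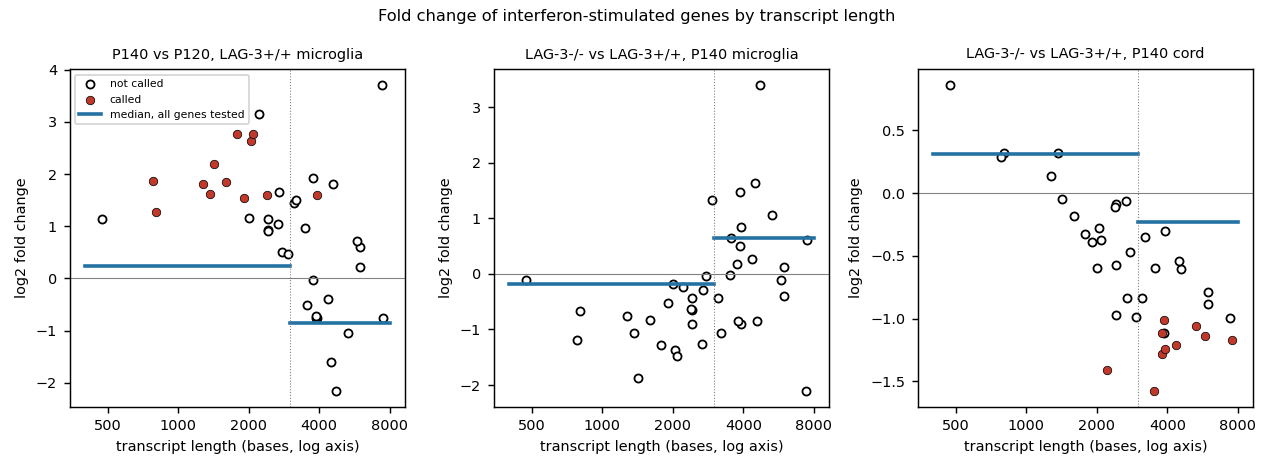
Log2 fold change of each ISG against transcript length in bases (log axis), for P140 against P120 in SOD1G93A/LAG-3+/+ microglia, the knockout in P140 microglia and the knockout in P140 cord; red points are called members, and blue lines are the medians of all genes tested on each side of 3000 bases. In SOD1G93A/LAG-3+/+ microglia the members under 3000 bases have a median of 1.60 and the longer ones of 0.09 from P120 to P140, and in cord the medians are -0.28 and -1.01.

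In SOD1G93A/LAG-3-/- microglia no ISG was called from P120 to P140 by edgeR, where 0% of all genes were called. There, 32 ISGs had positive and 9 negative values, the median log2 fold change was 0.72 against -0.03 over all genes, 8 of 41 ISGs had an unadjusted p under 0.05 beside 8.88% of all genes, and DESeq2 called 5 higher (Bst2, Ifi27l2a, Ifitm3, Oas1a and Xaf1) beside 1.92% of all genes. The plasmacytoid dendritic cell markers summed to 11.9 to 44.7 CPM at P120 and 36.8 to 69.9 CPM at P140 in the knockout, which overlapped. Oas1a, a synthetase whose product activates RNase L, was at 16.6, 51.5 and 18.3 CPM at P120 and 138, 82.7 and 59.5 CPM at P140 (log2 fold change 1.70, SE 0.47, edgeR adjusted p = 0.475). Its libraries did not overlap, nor did those of Ifi27l2a at 19.6, 82.7 and 18.8 CPM and 234, 174 and 85.2 CPM (log2 fold change 2.03, SE 0.61, edgeR adjusted p = 0.475). Bst2 was at 52.1, 100.1 and 47.8 CPM and 202, 141 and 87.8 CPM, with overlap (log2 fold change 1.11, SE 0.33, edgeR adjusted p = 0.475). With Lag3 the log2 fold changes were 1.54 for Oas1a, 1.14 for Ifi27l2a and 1.28 for Bst2.

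The difference between these stage effects was tested by the genotype-by-stage interaction, in which edgeR called 0 ISGs beside 0.171% of all genes. At an unadjusted p under 0.05 there were 3 of 41, where 13.6% of all genes passed, and DESeq2 called 3 (Oas3 higher, Ifit1 and Samhd1 lower) beside 6.97% of all genes. The median was -0.09 with 20 positive and 21 negative, and 0.07 without TMM. The 3 were Samhd1 at -1.29 (SE 0.41, edgeR adjusted p = 0.234), Ifit1 at -5.59 (SE 2.003, edgeR adjusted p = 0.270) and Oas3 at 5.68 (SE 2.20, edgeR adjusted p = 0.301), all in log2. The value of Ifit1 was -2.21 without the P120 knockout library at 472 CPM, and Oas3 lay between 0 and 11.7 CPM throughout. A different rise of the ISGs with and without Lag3 was thus not shown. Without P140 knockout replicate 1, Ifi35 and Samhd1 were called lower in the interaction, beside 2.56% of all genes.

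The knockout was compared with intact Lag3 at each stage. At P120 edgeR called 0 ISGs beside 0.0107% of all genes, with 2 of 41 at an unadjusted p under 0.05 beside 2.95% of all genes, and DESeq2 called 1 beside 0.718%. The ISG median was -0.08, and 0.03 without TMM, so no direction held. Xaf1, a proapoptotic partner of XIAP, was at 75.8, 93.1 and 82.7 CPM with Lag3 and 15.7, 36.5 and 28.4 CPM without it, and the groups did not overlap (log2 fold change -1.64, SE 0.45, edgeR adjusted p = 1). DESeq2 called it lower. Ifit1 was at 28.5, 11.6 and 5.15 CPM with Lag3, and its log2 fold change of 3.48 (SE 1.46, edgeR adjusted p = 1) was 0.10 without knockout replicate 1. That of Rsad2 was 2.35 (SE 1.31, edgeR adjusted p = 1), and 1.01 without the same library.

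At P140 edgeR again called 0 ISGs, now beside 10.2% of all genes, with 6 of 41 at an unadjusted p under 0.05 where 24.1% of all genes passed. That share of all genes was not firm. With only the 2 groups compared in the fit, 0 ISGs and 0% of all genes were called. Without knockout replicate 2, 0 ISGs were called beside 0.41% of all genes higher and 0.0593% lower. Without knockout replicate 3, it was 0 ISGs beside 0.676% and 0.0691%. The median was -0.43 with 12 positive and 29 negative values, against 0.14 over all genes. DESeq2 called 8, of which Ifi35, Ifit3b, Isg15, Isg20, Samhd1, Usp18 and Xaf1 were lower and Oas3 was higher, beside 10.2% and 12.7% of all genes. Samhd1, at 239, 138 and 155 CPM with Lag3, was at 128, 73.9 and 83.4 CPM in the knockout, all below the SOD1G93A/LAG-3+/+ range (log2 fold change -0.90, SE 0.29, edgeR adjusted p = 0.102). Over 21 alternatives its adjusted p lay between 0.0155 and 0.302. Blocking on replicate number, RLE size factors, or the length and GC correction each gave 1 called ISG in place of 0, lower in each. The shares of all genes called lower were 1.01%, 4.48% and 4.11%.

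Xaf1 was at 201, 99.9 and 217 CPM with Lag3 and 123, 54.5 and 39.5 CPM in the knockout, with overlap (log2 fold change -1.26, SE 0.45, edgeR adjusted p = 0.123). Isg20 was at 55.6, 20.1 and 29.3 CPM and 18.8, 3.96 and 5.88 CPM, without overlap (log2 fold change -1.87, SE 0.67, edgeR adjusted p = 0.126). Usp18 was at 509, 147 and 242 CPM and 209, 70.9 and 87.7 CPM (log2 fold change -1.29, SE 0.58, edgeR adjusted p = 0.205). Usp18 lies 3.63 Mb from Lag3 on chromosome 6, the knockout allele carries a 129S6 name in its strain, and a part of flanking sequence in this value was not tested. Without P140 SOD1G93A/LAG-3+/+ replicate 1 the ISG median turned to 0.57 and 5 members were called higher (Parp14, Parp9, Rigi, Slfn8 and Stat2) beside 8.72% of all genes, and without knockout replicate 1 there were 7 lower and 1 higher beside 8.29% and 11.9%, so the direction of the set at P140 depended on single libraries. The stage effect with Lag3 and the knockout effect at P140 share the P140 SOD1G93A/LAG-3+/+ libraries, and these comparisons are not independent.

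In whole P140 cord the knockout was lower in 10 of 40 ISGs and higher in 0 (edgeR with Benjamini-Hochberg adjustment over 17702 genes), beside 3.15% of all genes lower and 4.37% higher. The median log2 fold change was -0.60 with 35 negative and 5 positive values, against 0.00 over all genes. The 10 were the sensors Eif2ak2, Rigi, Ifi207 and Oasl1, the ADP-ribosylation genes Dtx3l and Parp14, the effectors Rsad2 and Slfn8, the ISG15 ligase Herc6, and Trim30a. DESeq2 called the same 10, beside 2.94% of all genes lower. None of the 4 IFIT genes, 3 transcription factors or 4 membrane genes was called.

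Eif2ak2 was at 31.3, 20.6 and 27.0 CPM with Lag3 and 11.3, 11.3 and 11.6 CPM without it, a log2 fold change of -1.21 (SE 0.15, edgeR adjusted p = 0.000347). Dtx3l was at 17.4, 13.8 and 17.0 CPM and 7.72, 8.21 and 7.16 CPM, a log2 fold change of -1.06 (SE 0.14, edgeR adjusted p = 0.000465). Herc6 was at 22.8, 16.4 and 18.2 CPM and 9.84, 8.05 and 8.26 CPM, a log2 fold change of -1.14 (SE 0.15, edgeR adjusted p = 0.000482). In each of these the genotypes were well apart, with knockout libraries close to each other.

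Rigi, the RNA sensor RIG-I, was at 18.1, 13.8 and 16.6 CPM and 7.61, 8.33 and 8.01 CPM, a log2 fold change of -1.01 (SE 0.14, edgeR adjusted p = 0.000555). The largest difference among the 10 was that of Ifi207, at 11.9, 6.41 and 8.93 CPM and 4.004, 2.80 and 2.35 CPM, a log2 fold change of -1.58 (SE 0.26, edgeR adjusted p = 0.00123). A further 12 ISGs passed the adjusted p without reaching the fold minimum, which brought the count to 22 of 40, all lower, where 23.9% of all genes were lower by that rule. Positive values belonged to Ifi27l2a (0.86, the highest), and to members such as Isg15, at 4.38, 2.67 and 4.64 CPM with Lag3 and 5.95, 4.38 and 4.003 CPM without.

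Whole cord mixes cell types, and in these libraries fewer microglia and less RNA per microglial cell cannot be told apart. By staining, the study reported a markedly smaller area positive for Iba1, a marker of microglia and macrophages, in knockout cord at P140. The 8 microglial markers summed to 1484, 1194 and 1501 CPM with Lag3 and 1142, 841 and 1003 CPM without it, and the 6 monocyte markers to 174 to 226 CPM and 99.7 to 116 CPM. The 4 oligodendrocyte markers summed to 14376 to 15656 CPM with Lag3 and to 20466.0 to 28477 CPM without it, which did not overlap, and the 4 astrocyte markers to 9436 to 11241 CPM and 5745 to 9938 CPM. The part of these lists was not tested. Per 100 CPM of microglial markers, the ISGs summed to 43.9, 35.9 and 37.9 CPM with Lag3 and 38.6, 43.5 and 34.7 CPM without it, which overlapped. In sorted P140 microglia the same 8 markers summed to 33767, 35095 and 40481 CPM with Lag3 and 37357, 25940 and 24793 CPM without it. The list includes P2ry12, Tmem119 and Cx3cr1, which the study names as homeostatic markers, so its sum is not a count of microglia. When libraries were scaled to the microglial marker sum, a setting chosen after seeing the data, 2 of 40 ISGs were called, Ifi207 lower and Ifi27l2a higher, beside 0.966% and 18.7% of all genes, with a median of -0.09. That scaling moved the median of all genes to 0.50. It shifts all genes of a library alike, so the ISG median lying below that of all genes here was no separate test.

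Cord values also moved with transcript length, and here the longer ISGs were lower: the median was -1.01 above 3000 bases with 9 of 19 called, and -0.28 below with 1 of 21 called, against medians of -0.23 and 0.31 over all genes. Here too the share of all genes called was not split by length. After the length and GC correction 4 stayed called (Oasl1, Ifi207, Rsad2 and Slfn8), beside 2.67% of all genes lower. Without cord replicate 2 with Lag3, the lowest of its group in 40 members, 18 ISGs were called, all lower, beside 3.46% of all genes.

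**Figure D5:**
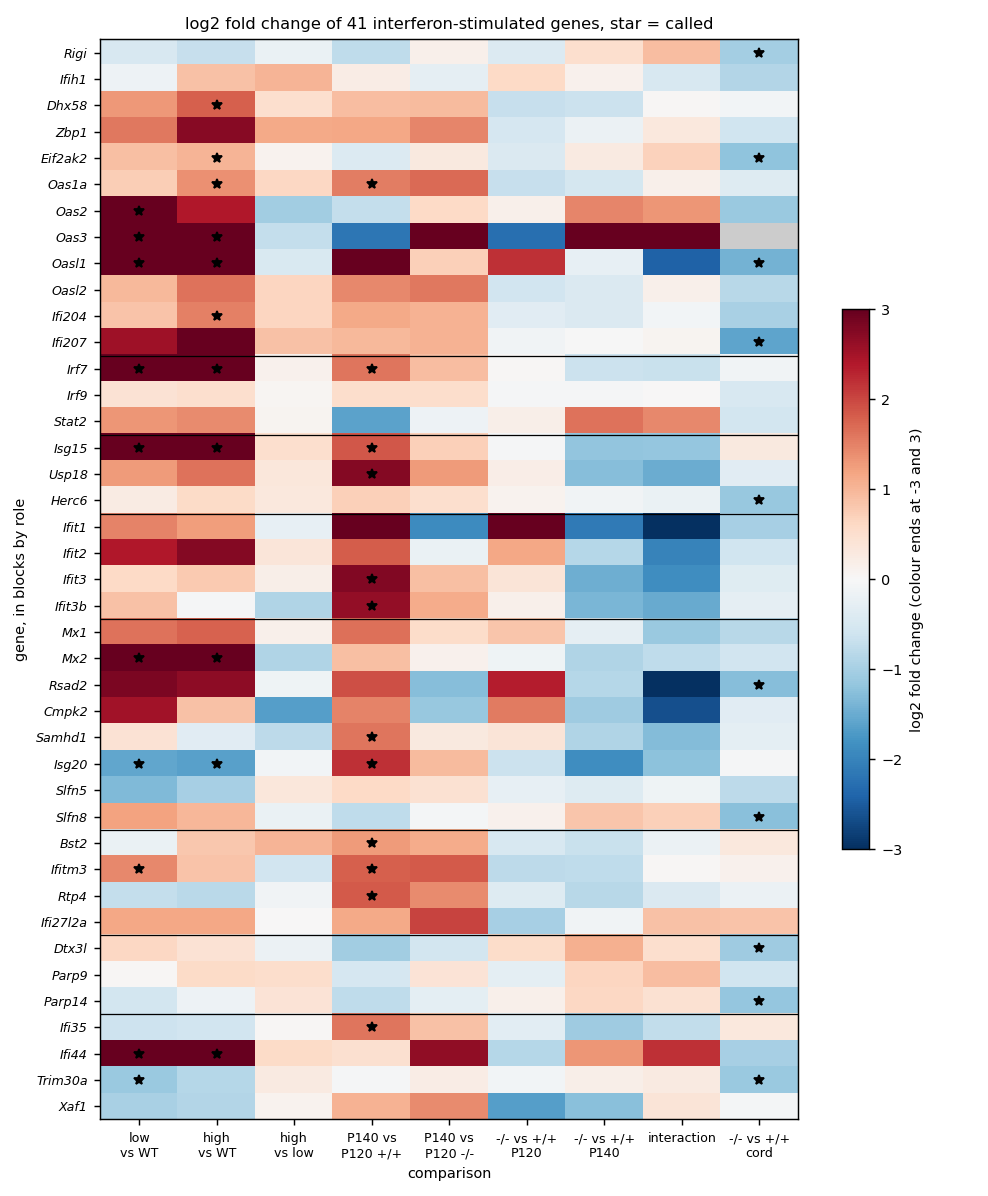
Log2 fold change of each ISG (rows, by role) in the 9 comparisons (columns), with a star on called members and grey for Oas3 in cord, which was not tested; the colour ends at -3 and 3. Called members are mostly positive against WT (8 and 10 higher) and from P120 to P140 with Lag3 (12 higher), and all 10 called in cord are negative.

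Across the 9 comparisons 13 ISGs were called nowhere, 17 in 1, 7 in 2 and 4 in 3. Oasl1 was higher in both SOD1G93A fractions and lower in knockout cord. Isg15 and Irf7 were higher in both fractions and rose from P120 to P140 with Lag3. Isg20 was lower in both fractions against WT and rose with stage. The IFIT genes were called in the stage comparison only, where the 2 called were Ifit3 and Ifit3b, while Ifit1 and Ifit2 reached 434 and 756 CPM in 1 P140 library but 28.5 and 18.9 CPM in another.

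The rest of the interferon pathway, 57 genes of a list outside the members, was read beside the ISGs. The 7 interferon genes themselves (Ifnb1, Ifna1, Ifna2, Ifna4, Ifng, Ifnk and Ifne) were at or near 0 in all libraries, with a highest value of 0.677 CPM, for Ifng in 1 LAG-3-high library. Of 47 pathway genes tested in the sorted table, 9 were higher and 1 lower in LAG-3-low against WT microglia, and 9 higher and 2 lower in LAG-3-high against WT. Of all genes, 10.9% were higher and 11% lower for LAG-3-low, and 12.1% higher and 14.9% lower for LAG-3-high. Ikbke, a kinase that activates IRF3 and IRF7, was at 0 to 0.102 CPM in WT, 4.18 to 38.8 CPM in LAG-3-low and 13.4 to 29.6 CPM in LAG-3-high libraries. Sting1, the adaptor of cytosolic DNA sensing, was lower in both fractions, by -1.15 and -1.40 in log2 (edgeR adjusted p = 0.00185 and 0.000241).

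Between the fractions 1 pathway gene, Ifnlr1, was called lower in LAG-3-high microglia, at 0 to 0.732 CPM against 6.73 to 45.0 CPM. There 2.67% of all genes were called lower. From P120 to P140 with Lag3, 13 of 49 pathway genes rose, led by the immunoproteasome subunits Psmb9 (1.87) and Psmb8 (1.25), and 10 fell, among them Stat3 (-2.38), all in log2. Of all genes, 11.9% rose and 15.5% fell. In the knockout no pathway gene was called with stage, nor in the interaction, nor at P120, beside 0%, 0.171% and 0.0107% of all genes. At P140 the knockout was higher in 4 and lower in 2 of 49, beside 7.22% of all genes higher and 3% lower. Tlr7, a sensor of single-stranded RNA, was at 1.04 in log2 (edgeR adjusted p = 0.0353). In cord Tlr7 was lower, by -1.40 in log2 (edgeR adjusted p = 0.000351), with Tlr9 at -1.35 and Iigp1 at -1.11 the other 2 of 48 called. Of all genes in cord, 3.15% were lower.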

How the data were processed

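The members and the gene lists were chosen with earlier results of these data known. The authors trimmed reads with Trim Galore 0.6.7, quantified transcripts with Salmon 1.9.0 on GRCm39 and summed them per gene with tximport (R 4.2.1 per the labels), and deposited estimated counts; the annotation release is not given in the sources used here. Per the labels, the microglial cDNA came from the SMART-seq HT LP kit, which does not mark strand. For cord, the study's methods name a directional kit and the labels the SMART-seq kit. Counts were rounded to whole numbers. Each table was fitted in edgeR 4.0.16 (R 4.3.3) after filterByExpr (at least 10 counts, 15 in total), with TMM scaling, a prior count of 2 and the two-sided robust quasi-likelihood test, adjusted by Benjamini-Hochberg over all of the genes tested; all libraries of a table entered 1 model. Members given in full were the called ones with the 3 smallest adjusted p in each direction, or the 3 smallest where none was called; other members with values were chosen after their values were seen. Bounds used a floor of 3 counts per library and cover counting error only. Alternatives were DESeq2 1.42.0, RLE factors, no TMM, no filter, a replicate block, only the groups compared, a length and GC correction, other thresholds, each library left out in turn and, chosen after seeing the data, scaling to microglial markers. The fits were tested on simulated data.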

Additional observations from a re-analysis of the deposited data

Results flagged for a closer look

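For each of the 41 ISGs and for their summed level in the 3 sorted groups, the highest or lowest library was flagged where its gap to the nearest other library took up more of the group's range than Dixon's 95% critical value allows (0.829 for 4 libraries, 0.710 for 5). Of 126 such series, 12 were flagged, where chance flags about 1 in 20 of independent, normally distributed series. Levels of different ISGs in 1 library are not independent, so these shares do not measure an excess over chance. WT replicate 3 was the high library in 7: Zbp1 at 17.6 CPM, Oasl2 at 126 CPM, Ifi207 at 54.8 CPM, Irf7 at 26.3 CPM, Isg15 at 1.75 CPM, Rsad2 at 12.1 CPM and Parp14 at 71.0 CPM. WT replicate 2 was high in Mx2 at 1.66 CPM. In LAG-3-low microglia, replicate 3 was high in Oas3 at 45.8 CPM, replicate 4 high in Xaf1 at 60.2 CPM and replicate 2 low in Bst2 at 43.6 CPM. In LAG-3-high microglia replicate 1 was high in Oas2 at 29.6 CPM. The groups of 3 libraries were not examined in this way.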

How the results depend on the processing

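Of 633 refitted log2 fold changes of the members given in full, 567 kept their direction and whether they were called, 45 lost the call, 21 gained one and 0 changed direction. On library totals without TMM the number of ISGs called was 1 for LAG-3-high against LAG-3-low cells, beside 0.212% of all genes higher and 3.83% lower. With only the groups compared in the fit it was 2 there, beside 2.23% of all genes higher and 7.67% lower. It was 4 and 4, all higher, for LAG-3-low and LAG-3-high against WT, beside 5.89% and 7.8% of all genes higher. Without a fold minimum it was 1 between the fractions and 22 in cord, all lower, beside 2.8% and 23.9% of all genes lower. For LAG-3-low against WT it was 6 with no filter and 4 at an adjusted p of 0.05, all higher, beside 3.99% and 7.69% of all genes higher. DESeq2 called 17 for LAG-3-high against WT and 19 from P120 to P140 with Lag3, beside 32.4% and 35.6% of all genes in either direction. It called 5 from P120 to P140 without Lag3 and 3 in the interaction, beside 2.41% and 6.97%. For the knockout it called 1 at P120 and 8 at P140, beside 0.718% and 22.9%. At P140 RLE factors and the length and GC correction each gave 1 lower, beside 4.48% and 4.11% of all genes lower. In cord the length and GC correction gave 4 and the microglial marker scaling 2. With each library left out in turn the counts were 0 to 2 (LAG-3-high against LAG-3-low), 7 to 18 and 8 to 18 (LAG-3-low and LAG-3-high against WT), 0 to 0 and 0 to 8 (knockout at P120 and P140), 6 to 20 and 0 to 0 (stage with and without Lag3), 0 to 2 (interaction) and 8 to 18 (cord). The cause was not tested. Deviations of same-numbered libraries correlated at -0.119 to 0.0674, which gave no general pairing by replicate number. The summed ISG level, however, ranked the replicates in the same order in both SOD1G93A fractions. From highest to lowest these were replicates 1, 4, 3, 5 and 2. Between the genotypes the order differed at P120, at P140 and in cord. Whether the ISG levels of the fractions are paired was not tested. With the replicate block the counts were 8 and 9 against WT and 12 for the stage with Lag3, all higher, beside 8.68%, 10.4% and 10.3% of all genes higher. They were 10 in cord and 1 for the knockout at P140 (Samhd1), all lower, beside 3.23% and 1.01% of all genes lower. Between the fractions the block gave 0 called ISGs, beside 0.575% of all genes higher and 1.79% lower. Depth limits members at a few CPM, such as Mx2 and Ifi44, and groups of 3 leave the stage results open to single libraries.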
